A study of Solanum lycopersicum with 9 samples.

Results

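A set of 4 assembled tomato leaf sequences tied to the making and breaking down of green and orange leaf pigments were followed over 3 doses of p-hydroxybenzoic acid (PHBA), a phenolic acid. The sequences, 4 of 82125 in the deposited table, carry the annotations GUN4-like, protochlorophyllide reductase, Staygreen protein and carotenoid oxygenase. They were listed by identifier, chosen by the FPKM difference between 30 mM and control leaves that an earlier look at the same libraries had shown. Their values at 30 mM are therefore a description and carry no test. All 4 passed the filter for low values, together with 44203 sequences in all, of which 13634 were annotated. Leaves came from the tomato (Solanum lycopersicum) cultivar Diana at an age of about 1 month. The groups were untreated control leaves (0 mM) and leaves treated with 15 or 30 mM PHBA, each with 3 libraries taken 2 days after the start of treatment. RNA samples of a treatment were pooled in equal amounts, per the labels, which do not state whether libraries of the same dose are separate plants. Every p-value thus reflects the spread among libraries alone, possibly a technical one.

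Chlorophyll is built in the plastid from glutamate through a porphyrin ring, and magnesium chelatase commits the ring to chlorophyll by inserting magnesium. GUN4 is a porphyrin-binding protein that stimulates this chelatase, as shown in cyanobacteria and Arabidopsis, and light-dependent protochlorophyllide reductase, a member of the short-chain dehydrogenase family, later reduces protochlorophyllide in the light. Stay-green proteins take part in breakdown, where in Arabidopsis they remove the magnesium from chlorophyll a. Carotenoid oxygenases of the RPE65 family cut carotenoids into smaller products, among them the precursors of abscisic acid and strigolactones, and the annotation does not say which of these reactions the sequence described here carries out.

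The labelled tissue was checked with the values of leaf sequences. Of 68 sequences with chlorophyll a-b binding, photosystem, Rubisco small subunit or carbonic anhydrase annotation, 67 were above 0 in all 9 libraries and none was at 0 throughout. They summed to 23300 to 30500 FPKM (fragments per sequence, scaled to its length and to the library's mapped fragments) in control libraries, 21700 to 37600 in 15 mM libraries and 18100 to 25000 in 30 mM libraries. Sequences with pollen, Casparian strip, seed or fruit words, families that leaves also express, summed to 101 to 107 FPKM in control libraries, 112 to 150 in 15 mM libraries and 130 to 177 in 30 mM libraries, and none of these 45 was at 0 throughout. Summed FPKM over all sequences was 349076 to 383347 per library. On the first principal component, which held 28.3% of the variance, 15 mM replicate 2 lay at -34.3, nearest to the controls (-60.7 to -44.5), against -9.37 and 0.396 for the other 15 mM libraries. Read counts are not used here, so no counting interval can be given.

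The GUN4-like sequence T15_3_TRINITY_DN27255_c0_g1 was among the most abundant sequences of untreated leaves, at the 99.6th percentile of control levels. It had 66.21, 83.59 and 70.26 FPKM in control replicates 1 to 3, 36.29, 49 and 33.21 FPKM at 15 mM and 10.2, 14.76 and 13.84 FPKM at 30 mM. Every library at a higher dose lay below every library at a lower dose, so the 3 doses did not overlap. The means were 73.4 ± 9.09, 39.5 ± 8.37 and 12.9 ± 2.41 FPKM for 0, 15 and 30 mM (SD, n = 3 each). The level at 30 mM was 5.67-fold lower than in controls, a log2 difference in FPKM + 1 of -2.42 (95% confidence interval -2.85 to -2.0). It is the only sequence in the table with the GUN4 domain.

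The protochlorophyllide reductase-type sequence TCK_3_TRINITY_DN2177_c0_g2 followed the same order at a lower level. Control replicates 1 to 3 had 8.89, 12.36 and 7.44 FPKM, the 15 mM libraries 2.21, 4.71 and 2.41 FPKM, and the 30 mM libraries 0.14, 1.8 and 0.28 FPKM. Again no dose overlapped another, although 30 mM replicate 2 came close to the lowest 15 mM library. Means were 9.56 ± 2.53 FPKM at 0 mM, 3.11 ± 1.39 FPKM at 15 mM and 0.74 ± 0.921 FPKM at 30 mM, where the SD exceeded the mean. The fall at 30 mM was 12.9-fold in FPKM. On the log2(FPKM + 1) scale it was -2.70 (interval -3.53 to -1.87), a value that depends on the number added at such low levels: -4.08 with 0.1 added and -1.34 with 5.

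The stay-green sequence T15_1_TRINITY_DN12869_c0_g1 was the only one of the 4 that was higher after treatment. Its levels were 3.66, 2.91 and 3.71 FPKM in control replicates 1 to 3, 7.36, 3.66 and 10.43 FPKM at 15 mM, and 16.23, 11.4 and 14.81 FPKM at 30 mM. The 30 mM libraries lay above all others, while 15 mM replicate 2, the library nearest the controls on the first principal component, had the same level as a control library. Means were 3.43 ± 0.448, 7.15 ± 3.39 and 14.1 ± 2.48 FPKM for 0, 15 and 30 mM. At 30 mM the level was 4.13-fold that of controls, a log2 difference of 1.77 (interval 1.10 to 2.43).

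The carotenoid oxygenase sequence T15_3_TRINITY_DN2708_c0_g1 was the most abundant of the 4 in controls, with 68.78, 92.41 and 83.17 FPKM. It had 60.29, 56.03 and 76.09 FPKM in the 15 mM libraries and 15.1, 27.14 and 12.63 FPKM in the 30 mM libraries. The 15 mM libraries overlapped the controls, and all 30 mM libraries were below both. Means were 81.5 ± 11.9, 64.1 ± 10.6 and 18.3 ± 7.76 FPKM for 0, 15 and 30 mM. The fall at 30 mM was 4.45-fold, with a log2 difference of -2.16 (interval -2.75 to -1.56).

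**Figure D1:**
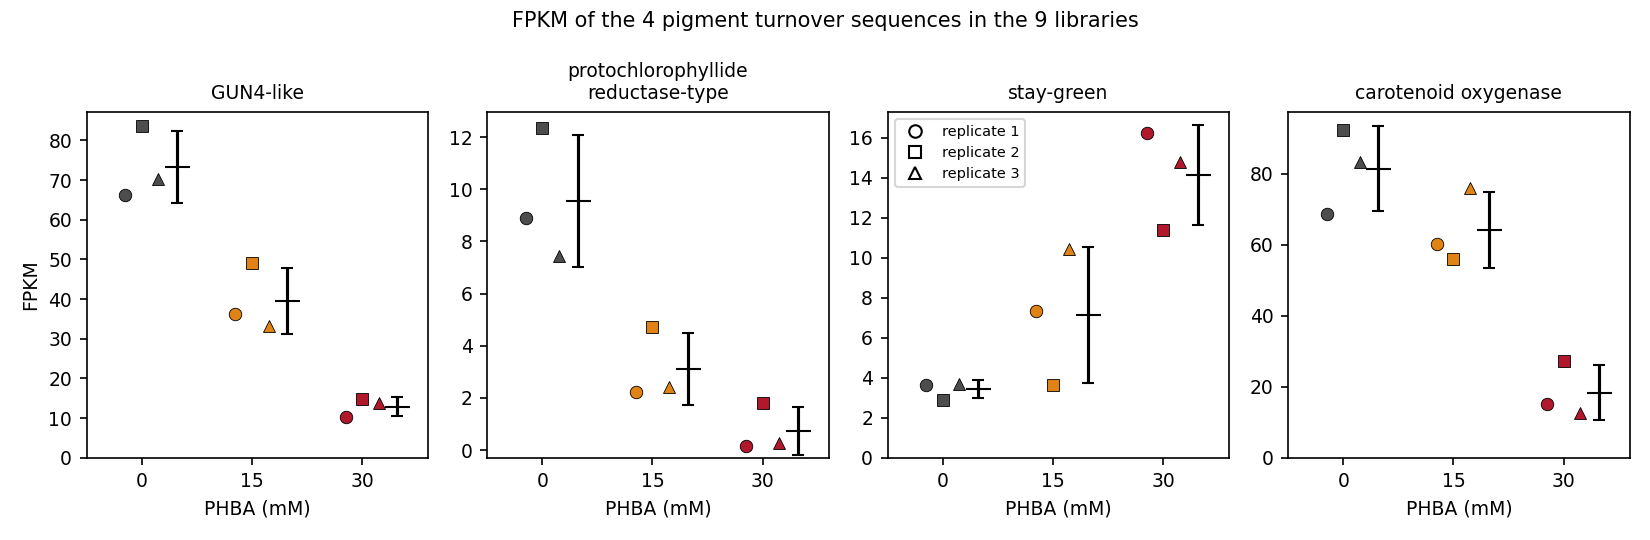
FPKM of the GUN4-like, protochlorophyllide reductase-type, stay-green and carotenoid oxygenase sequences (1 panel each) against the PHBA dose in mM. Points are libraries, with the replicate number as the shape, and the cross-bar and whiskers are the mean and SD of 3 libraries. The GUN4-like level steps down from dose to dose (means 73.4, 39.5 and 12.9 FPKM). The 15 mM libraries of the carotenoid oxygenase overlap the controls (means 81.5, 64.1 and 18.3 FPKM), which leaves room for a fall as large as the GUN4-like one at that dose.

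A sequence was called at an adjusted p under 0.05 in limma with Benjamini-Hochberg adjustment. Between 30 mM and control this held for 11.8% of all sequences tested (10% higher and 1.75% lower), and for the 4 members, for which the choice on this difference fixed the call. The split of the background depended on the scaling: quantile normalization gave 5.62% higher and 5.45% lower, and median-of-ratios factors 6.41% higher and 5.22% lower. Libraries of these groups likewise did not overlap for any of the 4, nor for 25.9% of all sequences in the higher and 6.04% in the lower direction. Between 30 mM and 15 mM the GUN4-like sequence differed by -1.54 on the log2 scale and the carotenoid oxygenase by -1.82. The protochlorophyllide reductase-type sequence differed by -1.31 and the stay-green sequence by 0.97. In this comparison, which shares the 30 mM libraries with the one that chose the members, the groups did not overlap for any of the 4, as for 6.9% of all sequences in the lower and 12.6% in the higher direction. The call rule was met by 3.1% of all sequences there, 2.41% higher and 0.69% lower. For the members, chosen with the 30 mM libraries, meeting it is a description and no test. The GUN4-like and carotenoid oxygenase sequences met it, and the reductase-type and stay-green sequences did not. Leaf RNA was measured in bulk, so fewer cells of a type and less RNA per cell cannot be told apart.

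The lower dose was the comparison in which the members could be tested, with the limit that it uses the same control libraries as the 30 mM comparison that chose them. None of the 4 passed the threshold, in a comparison where limma called 0.0995% of all sequences and 10.4% had an unadjusted p under 0.05. The nearest was the GUN4-like sequence, 1.86-fold lower at 15 mM (log2 difference -0.89, SE 0.19, interval -1.32 to -0.46, unadjusted p = 0.00115, adjusted p = 0.156). It passed in 1 of 18 alternative settings, the one limited to sequences averaging 5 FPKM or more (adjusted p = 0.0365, range over the settings 0.0365 to 0.434). The protochlorophyllide reductase-type sequence was 3.08-fold lower in FPKM (log2 difference -1.39, SE 0.37, interval -2.22 to -0.56, limma adjusted p = 0.239). These 2 were also the members whose 15 mM libraries lay wholly below the controls, which 2.37% of all sequences did.

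For the stay-green sequence the mean at 15 mM was 2.09-fold that of controls, with overlapping libraries (log2 difference 0.79, SE 0.29, interval 0.13 to 1.46, limma adjusted p = 0.415). Without 15 mM replicate 2 the difference was 1.15 (adjusted p = 0.0725, range over the settings 0.0725 to 0.754). The carotenoid oxygenase was 1.27-fold lower at 15 mM (log2 difference -0.34, SE 0.26, limma adjusted p = 0.660). The interval of that difference, -0.93 to 0.25, includes 0 and a fall as large as that of the GUN4-like sequence at this dose.

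The share of the 30 mM difference already present at 15 mM is given as a point value for each member, and differences between members were not tested. On the log2(FPKM + 1) scale it was 51.4% for the protochlorophyllide reductase-type sequence, 44.8% for the stay-green sequence, 36.7% for the GUN4-like sequence and 15.8% for the carotenoid oxygenase. Leaving out each library in turn gave 44.7 to 61.1%, 28.4 to 65.0%, 32.1 to 43.3% and 11.7 to 21.8% in the same order. The carotenoid oxygenase range lay below the ranges of the other 3. The stay-green range overlapped those of the reductase-type and GUN4-like sequences, which did not overlap each other. These ranges are not confidence intervals, and each share is of the 30 mM difference that chose the members. With 0.1 added in place of 1 the shares were 40.2%, 46.1%, 36.1% and 15.6% in the same order. With 5 added they were 62.9%, 41.6%, 38.8% and 16.8%. With quantile normalization they were 53.9%, 43.1%, 35.1% and 17.4%, and with median-of-ratios factors 55.0%, 38.8%, 41.7% and 24.5%. The order of the reductase-type and stay-green sequences thus depended on the number added, and that of the stay-green and GUN4-like sequences on the scaling. The carotenoid oxygenase had the lowest share in each of these settings. The ratio of GUN4-like to stay-green FPKM, 1 falling and 1 rising sequence in the same library, was 18.1, 28.7 and 18.9 in control replicates 1 to 3. It was 4.93, 13.4 and 3.18 in the 15 mM libraries and 0.628, 1.29 and 0.935 in the 30 mM libraries. In 2 of the 3 libraries at 30 mM the stay-green sequence was thus the more abundant one per length, and 15 mM replicate 2 was again the treated library closest to the controls.

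The annotation gives 3 light-dependent protochlorophyllide reductase sequences, and all 3 were lower at 30 mM. The most abundant of them, TCK_3_TRINITY_DN1444_c0_g1, had 7.46, 6.66 and 4.85 FPKM at 30 mM, against 14.04, 19.57 and 16.29 FPKM in controls, without overlap. It fell by 1.27 on the log2 scale (SE 0.21, limma adjusted p = 0.00576). TCK_3_TRINITY_DN2177_c0_g1, which shares its assembly cluster with the listed sequence and may be a piece of the same gene, had 1.27, 2.04 and 0.71 FPKM at 30 mM and 4.44, 9.57 and 4.71 FPKM in controls. It fell by 1.60 on the log2 scale (SE 0.29, limma adjusted p = 0.00876). Both calls held in each alternative that tested them. At 15 mM neither passed (log2 differences -0.35 and -0.83, limma adjusted p = 0.577 and 0.375).

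Summed over these 3 sequences, protochlorophyllide reductase FPKM was 32.4 ± 7.87 at 0 mM, 18.9 ± 2.74 at 15 mM and 8.40 ± 2.36 at 30 mM. The listed sequence supplied 26.2 to 32.5% of this sum in control libraries, 10.9 to 26.6% in 15 mM libraries and 1.58 to 17.1% in 30 mM libraries. Its share fell together with the sum, so at 30 mM the remaining reductase FPKM came mainly from TCK_3_TRINITY_DN1444_c0_g1.

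Protochlorophyllide reductases belong to the short-chain dehydrogenase family (Pfam PF00106), enzymes of many pathways that use NAD(P), and 34 of its 39 sequences could be tested. At 30 mM 5 of the other 33 rose and 2 fell, beside 10% higher and 1.75% lower among all sequences and 21.1% and 2.95% among annotated ones, and the 2 that fell were the other protochlorophyllide reductases. The median log2 difference of these 33 was 0.26, close to the 0.30 of all annotated sequences tested. The most abundant riser was TCK_1_TRINITY_DN598_c0_g1, with 74.3 ± 13.0 FPKM at 30 mM and 21.9 ± 3.45 FPKM in controls (log2 difference 1.71, SE 0.16, limma adjusted p = 5.12e-04). T30_2_TRINITY_DN355_c0_g2 had 14.3 ± 2.75 FPKM at 30 mM and 4.19 ± 0.656 FPKM in controls (log2 difference 1.55, limma adjusted p = 5.99e-04). The annotation gives no reaction for either. Another, TCK_2_TRINITY_DN2401_c0_g1, rose by 0.58 and lost its call in 10 of 18 settings, among them leaving out any control library, 30 mM replicate 1 or 30 mM replicate 3 (adjusted p = 0.0855 to 0.147, range over all settings 0.0218 to 0.407). The other 2 rises, named after their values were seen, were T30_1_TRINITY_DN9346_c0_g1 (log2 difference 1.15, 8.05-fold in FPKM over a low control level) and T30_3_TRINITY_DN18104_c0_g1 (0.89, lost without control replicate 1 at adjusted p = 0.0518, range over the settings 0.00319 to 0.0518). At 15 mM limma called none of the 34, and 7 had an unadjusted p under 0.05, 5 higher and 2 lower. Without the member these were 5 higher and 1 lower of 33, beside 10.4% of all sequences in either direction.

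The Staygreen domain (Pfam PF12638) occurs in 1 further sequence, T30_3_TRINITY_DN4442_c0_g1. It had 1.85, 3.78 and 3.16 FPKM at 30 mM, against 0, 1.08 and 0 FPKM in controls, so the groups did not overlap. The log2 difference was 1.59 (SE 0.50) and did not pass the threshold (limma adjusted p = 0.0738). It passed in 3 of 17 settings, which left out all 15 mM libraries or 15 mM replicate 1 or 2 (adjusted p = 0.0360 to 0.0412, range over the settings 0.0360 to 0.208). The listed stay-green sequence held 75.1 to 89.8% of the summed Staygreen FPKM at 30 mM and 72.9 to 100% in controls.

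The carotenoid oxygenase family (Pfam PF03055, RPE65) has 5 sequences, and its members did not move one way. The listed sequence was by far the most abundant in controls, with 78.7 to 84.7% of the family's FPKM, and held 73.1 to 80.4% at 15 mM. At 30 mM its share was 27.6 to 56.2%. The family sum was 47.8 ± 1.78 FPKM at 30 mM and 99.7 ± 13.1 FPKM in controls, whereas the other 4 together had 29.5 ± 7.24 FPKM at 30 mM and 18.2 ± 2.96 FPKM in controls.

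Among those 4, T30_2_TRINITY_DN23026_c0_g1 had 12.32, 7.97 and 14.13 FPKM at 30 mM, against 5.01, 5.28 and 2.93 FPKM in controls, and rose by 1.20 on the log2 scale (SE 0.25, limma adjusted p = 0.0180). Its 15 mM libraries had 2.63, 1.95 and 3.25 FPKM, and the difference between 30 mM and 15 mM was 1.77 (limma adjusted p = 0.00976, called in all 18 settings). The call against control was lost under quantile and median-of-ratios scaling and on leaving out control replicate 3, 30 mM replicate 1 or 30 mM replicate 3 (adjusted p = 0.0552 to 0.113, range over the settings 0.00321 to 0.113). T30_1_TRINITY_DN23504_c0_g1, with 2.31 ± 1.06 FPKM at 30 mM and 0.380 ± 0.0100 FPKM in controls, also rose (log2 difference 1.21, limma adjusted p = 0.0141). That call was lost when control replicate 1, control replicate 2 or 30 mM replicate 1 was left out (adjusted p = 0.0508 to 0.0534, range over the settings 0.00147 to 0.0534). T15_2_TRINITY_DN9582_c0_g2 had 13.0 ± 2.34 FPKM at 30 mM and 12.6 ± 1.71 FPKM in controls (log2 difference 0.03), and T30_1_TRINITY_DN47491_c0_g1 had 2.73 ± 1.18 FPKM at 30 mM and 0.833 ± 0.399 FPKM in controls (log2 difference 0.99, limma adjusted p = 0.0768), a difference that was called without 30 mM replicate 2 (adjusted p = 0.0291, range over the settings 0.0291 to 0.223). At 30 mM the listed sequence, T15_2_TRINITY_DN9582_c0_g2 and T30_2_TRINITY_DN23026_c0_g1 had overlapping levels, with means of 18.3, 13.0 and 11.5 FPKM.

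**Figure D2:**
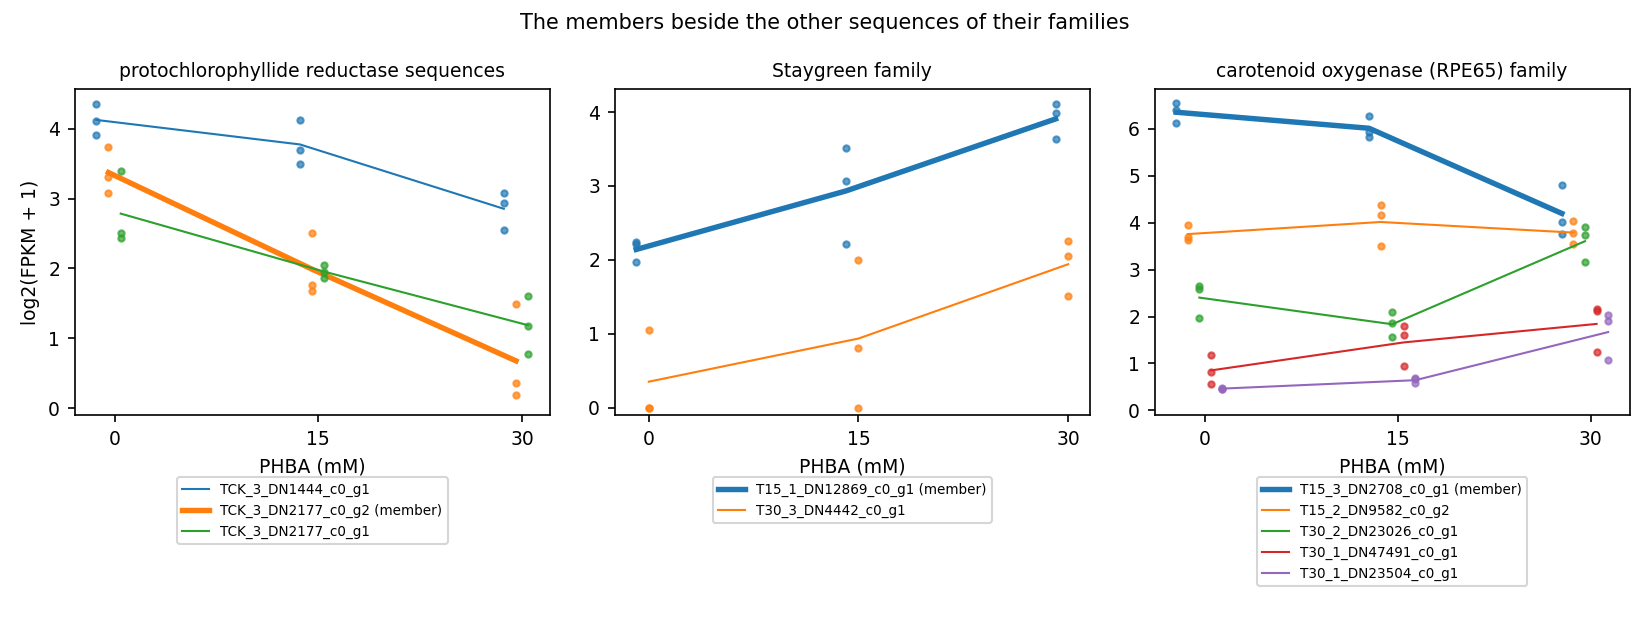
Levels as log2(FPKM + 1) against the PHBA dose in mM for the 3 protochlorophyllide reductase sequences, the 2 Staygreen sequences and the 5 carotenoid oxygenase sequences; points are libraries, lines join the means of 3 libraries, and the thick line is the listed sequence. The reductases fall together, while the listed carotenoid oxygenase, with 78.7 to 84.7% of its family's FPKM in controls, comes down at 30 mM to the level of 2 others.

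The rest of chlorophyll synthesis was read from a list of 31 sequences matched by enzyme words in the annotation, the GUN4-like and protochlorophyllide reductase-type members included. Outside these 2 members, 4 of 29 sequences fell at 30 mM and 5 rose, beside 2.95% lower and 21.1% higher among all annotated sequences, with a median log2 difference of 0.12, against 0.30 for all annotated and 0.18 for all sequences. Counts and medians of this list depended on the scaling: over all 31 sequences the median was 0.07 as deposited, -0.28 with median-of-ratios factors and -0.39 with quantile normalization, with 6, 12 and 15 falls and 5, 3 and 3 rises. The 31 include the 2 members, whose fall the choice fixed. Of all sequences tested, 1.75%, 5.22% and 5.45% were called lower in the same order, and 10%, 6.41% and 5.62% higher. These rescalings moved the median of all sequences, 0.18 as deposited, to 0 and -0.01. The falls of the 2 members and of the 4 further sequences kept their direction under both.

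In the values as deposited, the called falls lay at the magnesium chelatase step and after it. T15_2_TRINITY_DN2496_c0_g1 carries the pathway annotation of magnesium chelatase subunit I, but the domain of the large subunit that GUN4 binds. It had 58.7 ± 4.38 FPKM at 30 mM and 115 ± 17.4 FPKM in controls and fell by 0.95 on the log2 scale (SE 0.19, limma adjusted p = 0.0133). That call was lost without control replicate 2 (adjusted p = 0.0604, range over the settings 7.84e-04 to 0.0604). Geranylgeranyl reductase, which makes the phytol tail of chlorophyll, was represented by T15_2_TRINITY_DN13141_c0_g1 with 56.9 ± 5.14 FPKM at 30 mM and 166 ± 35.6 FPKM in controls (log2 difference -1.51, SE 0.20, limma adjusted p = 0.00201, called in all 18 settings). The other falls were the 2 protochlorophyllide reductases described above. The magnesium-protoporphyrin cyclase sequence T15_1_TRINITY_DN12183_c0_g1 had 28.8 ± 6.59 FPKM at 30 mM and 55.9 ± 14.6 FPKM in controls (log2 difference -0.93, SE 0.27) and did not pass (limma adjusted p = 0.0572), although it did in 6 of 18 settings, among them leaving out 15 mM replicate 2 or 3 (range over the settings 0.00109 to 0.180).

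No sequence of the steps from glutamate-1-semialdehyde aminomutase to protoporphyrinogen oxidase was called at 30 mM in the values as deposited. After quantile normalization the main sequences of glutamyl-tRNA reductase, glutamate-1-semialdehyde aminomutase and coproporphyrinogen oxidase were called lower (log2 differences -0.70, -0.56 and -0.69). With median-of-ratios factors the first and the last were called (-0.59 and -0.56), and without the 4 most abundant sequences the last was (-0.35). The main glutamyl-tRNA reductase sequence, T30_1_TRINITY_DN87652_c0_g1, which opens the pathway, had 20.1 ± 2.76 FPKM at 30 mM and 23.4 ± 3.54 FPKM in controls (log2 difference -0.21). Glutamate-1-semialdehyde aminomutase, T30_1_TRINITY_DN87970_c0_g1, had 25.5 ± 4.94 FPKM at 30 mM and 26.3 ± 3.56 FPKM in controls (-0.05). Porphobilinogen synthase, T30_3_TRINITY_DN3409_c0_g1, had 21.0 ± 4.23 FPKM at 30 mM and 14.9 ± 0.550 FPKM in controls (0.45). Of 2 further magnesium chelatase sequences, also annotated as subunit I, TCK_3_TRINITY_DN10673_c0_g1 had 31.9 ± 5.59 FPKM at 30 mM and 33.0 ± 5.12 FPKM in controls (-0.05). The other, T30_2_TRINITY_DN1960_c0_g1, had 11.05, 9.34 and 9.37 FPKM at 30 mM, against 11.77, 15.44 and 12.95 FPKM in controls, without overlap (-0.39, limma adjusted p = 0.156). Chlorophyll synthase, TCK_3_TRINITY_DN6061_c0_g3, which attaches the phytol tail, had 14.9 ± 2.19 FPKM at 30 mM and 14.2 ± 1.34 FPKM in controls (0.06), but fell by 0.46 after quantile normalization (limma adjusted p = 0.0235).

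Of the 5 sequences of the list that rose, 4 were named after their values were seen, because their mean was under 5 FPKM. T15_2_TRINITY_DN9402_c0_g1, with 7.40 ± 2.14 FPKM at 30 mM and 1.52 ± 0.200 FPKM in controls (log2 difference 1.71, limma adjusted p = 0.00191), is annotated for siroheme, a cofactor that branches off before chlorophyll. TCK_2_TRINITY_DN5155_c0_g2, with 7.94 ± 1.46 FPKM at 30 mM and 3.62 ± 0.387 FPKM in controls (0.94, limma adjusted p = 0.00667), is annotated as shikimate dehydrogenase, an enzyme of aromatic amino acid synthesis that entered the list through domain words. A second glutamyl-tRNA reductase, T30_1_TRINITY_DN11271_c0_g1, had 5.62 ± 1.38 FPKM at 30 mM and 1.64 ± 0.497 FPKM in controls (1.32, limma adjusted p = 0.00468). A second geranylgeranyl reductase, T30_1_TRINITY_DN65717_c0_g1, rose by 0.64 and T15_2_TRINITY_DN2170_c0_g1, with a pheophorbide a oxygenase domain, by 0.73. The first was called in 9 of 17 settings and needed control replicates 1 and 2 and 30 mM replicates 1 and 3. Its call was also lost under quantile and median-of-ratios scaling, without the 4 most abundant sequences and with the replicate block (limma adjusted p over the settings 0.0195 to 0.269). The second was called in 8 and needed control replicates 1 and 2, 15 mM replicate 1 and every 30 mM library. Quantile and median-of-ratios scaling and dropping the filter also removed its call (limma adjusted p over the settings 0.0224 to 0.125).

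**Figure D3:**
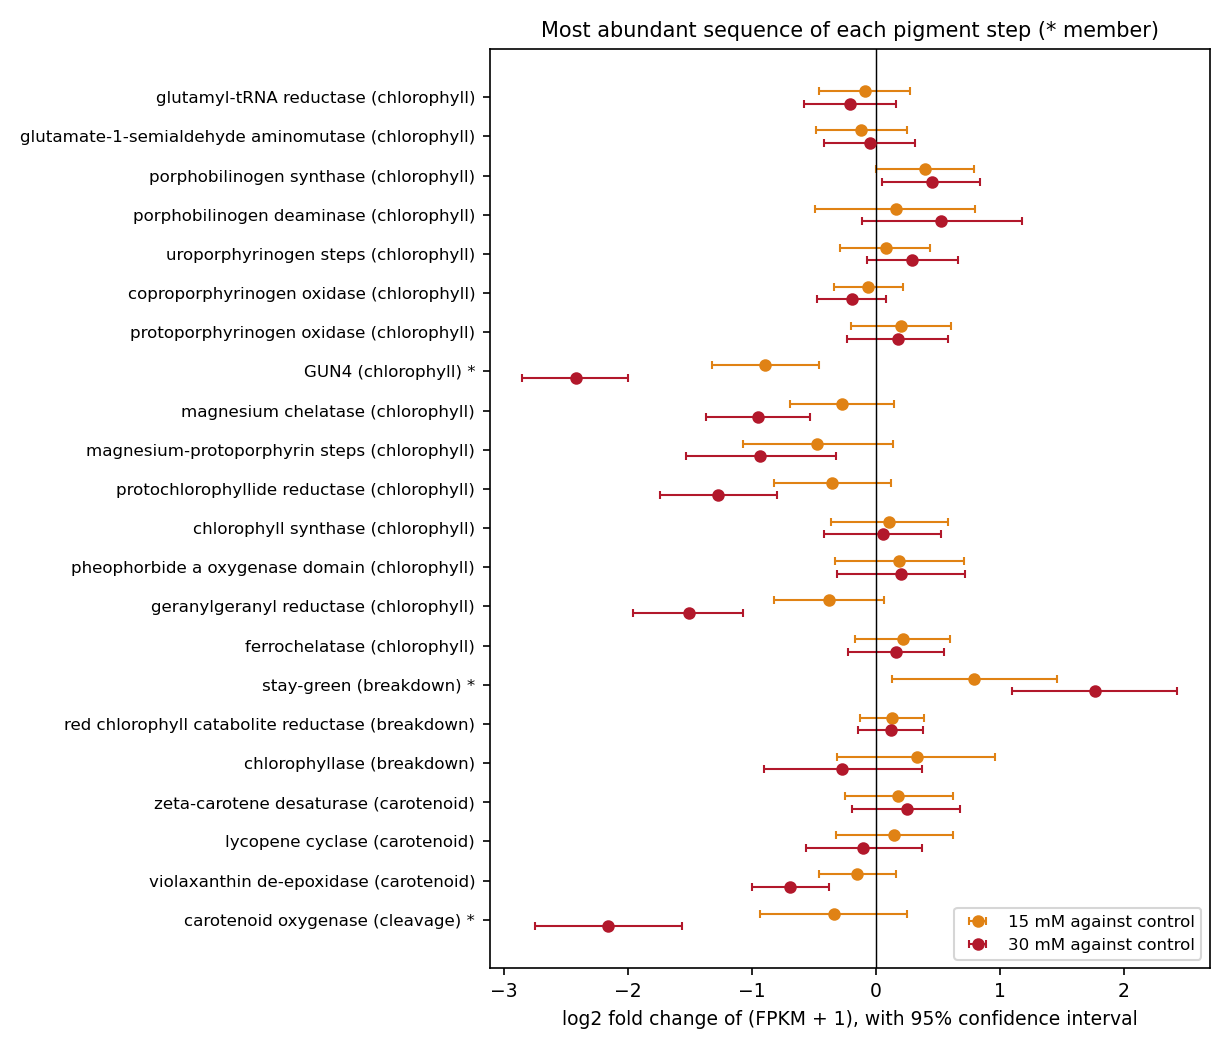
Log2 differences in FPKM + 1 between PHBA-treated and control leaves for the most abundant sequence of each annotated pigment step, at 15 mM and at 30 mM, with 95% confidence intervals from limma; an asterisk marks a listed sequence. At 30 mM, as deposited, values lie at or above 0 or close to it for the early porphyrin steps (-0.21 to 0.53). They lie below 0 from GUN4 and magnesium chelatase to protochlorophyllide reductase (-2.42 to -0.93). The -2.42 is the GUN4-like member, chosen for its difference, and the -0.93, the cyclase, was not called. After quantile normalization glutamyl-tRNA reductase, glutamate-1-semialdehyde aminomutase and coproporphyrinogen oxidase were called lower too (-0.70, -0.56 and -0.69).

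At 15 mM limma called none of the 31 chlorophyll synthesis sequences, and 5 had an unadjusted p under 0.05, 2 higher and 3 lower. Without the members these were 2 higher and 1 lower of 29, beside 10.4% of all sequences in either direction. Between 30 mM and 15 mM 2 sequences other than members rose, the siroheme-annotated T15_2_TRINITY_DN9402_c0_g1 (1.22) and the second glutamyl-tRNA reductase T30_1_TRINITY_DN11271_c0_g1 (1.01), and 1 fell, geranylgeranyl reductase T15_2_TRINITY_DN13141_c0_g1 (log2 difference -1.14, limma adjusted p = 0.0198). Among all sequences 2.41% were called higher and 0.69% lower in this comparison. The first rise was called in 12 of 17 settings, with 15 mM replicates 1 and 2 and 30 mM replicates 1 and 3 each needed, and the second in 6, with control replicate 1 and every treated library needed. The fall was lost in 6 of 18 settings, among them leaving out either of 15 mM replicates 1 and 3 or either of 30 mM replicates 1 and 3 (adjusted p = 0.0507 to 0.0729, range over the settings 0.00224 to 0.0729).

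Chlorophyll breakdown was represented by 8 sequences, the stay-green member included. Of the other 7, 1 rose at 30 mM, the pheophorbide a oxygenase-domain sequence named above, and none fell. Among all annotated sequences 21.1% were called higher and 2.95% lower. The more abundant pheophorbide a oxygenase-domain sequence T30_2_TRINITY_DN1003_c0_g1, a family that includes the enzyme opening the chlorophyll ring, had 17.6 ± 1.56 FPKM at 30 mM and 15.2 ± 2.47 FPKM in controls (log2 difference 0.20). Red chlorophyll catabolite reductase, T15_3_TRINITY_DN5541_c0_g1, the next enzyme, had 4.61 ± 0.305 FPKM at 30 mM and 4.17 ± 0.200 FPKM in controls (0.12), but fell by 0.28 after quantile normalization (limma adjusted p = 0.0499). The chlorophyllase sequence T15_3_TRINITY_DN1203_c0_g1 had 2.71 ± 0.835 FPKM at 30 mM and 3.44 ± 0.893 FPKM in controls (-0.27). At 15 mM limma called none of the 8, and 2 had an unadjusted p under 0.05, both higher, the stay-green member among them. Of all sequences 10.4% had such a p.

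In carotenoid synthesis 2 of 12 sequences fell at 30 mM and none rose, beside 2.95% lower and 21.1% higher among all annotated sequences. Of all sequences 1.75% were called lower and 10% higher. With quantile normalization 6 of the 12 fell, beside 5.45% of all sequences under that scaling. The list was matched by domain words and includes T30_1_TRINITY_DN11315_c0_g1, which is annotated as squalene synthase, a sterol enzyme. TCK_1_TRINITY_DN2256_c0_g1, of the squalene and phytoene synthase family, which includes the enzyme that opens carotenoid synthesis, had 4.69 ± 0.762 FPKM at 30 mM and 9.35 ± 0.0954 FPKM in controls (log2 difference -0.87, SE 0.15, limma adjusted p = 0.00806, called in all 18 settings). Violaxanthin de-epoxidase, the xanthophyll cycle enzyme that acts in strong light, was represented by T30_2_TRINITY_DN4367_c0_g1, with 12.7 ± 1.49 FPKM at 30 mM and 21.1 ± 1.10 FPKM in controls (-0.69, limma adjusted p = 0.0135). That call was lost without control replicate 1 or 2 (adjusted p = 0.0523 and 0.0631, range over the settings 3.15e-04 to 0.0631). Zeta-carotene desaturase, TCK_2_TRINITY_DN11153_c0_g1, had 26.8 ± 4.79 FPKM at 30 mM and 22.2 ± 1.63 FPKM in controls (0.25). The log2 differences of the 12 ran from -0.87 to 0.66.

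**Figure D4:**
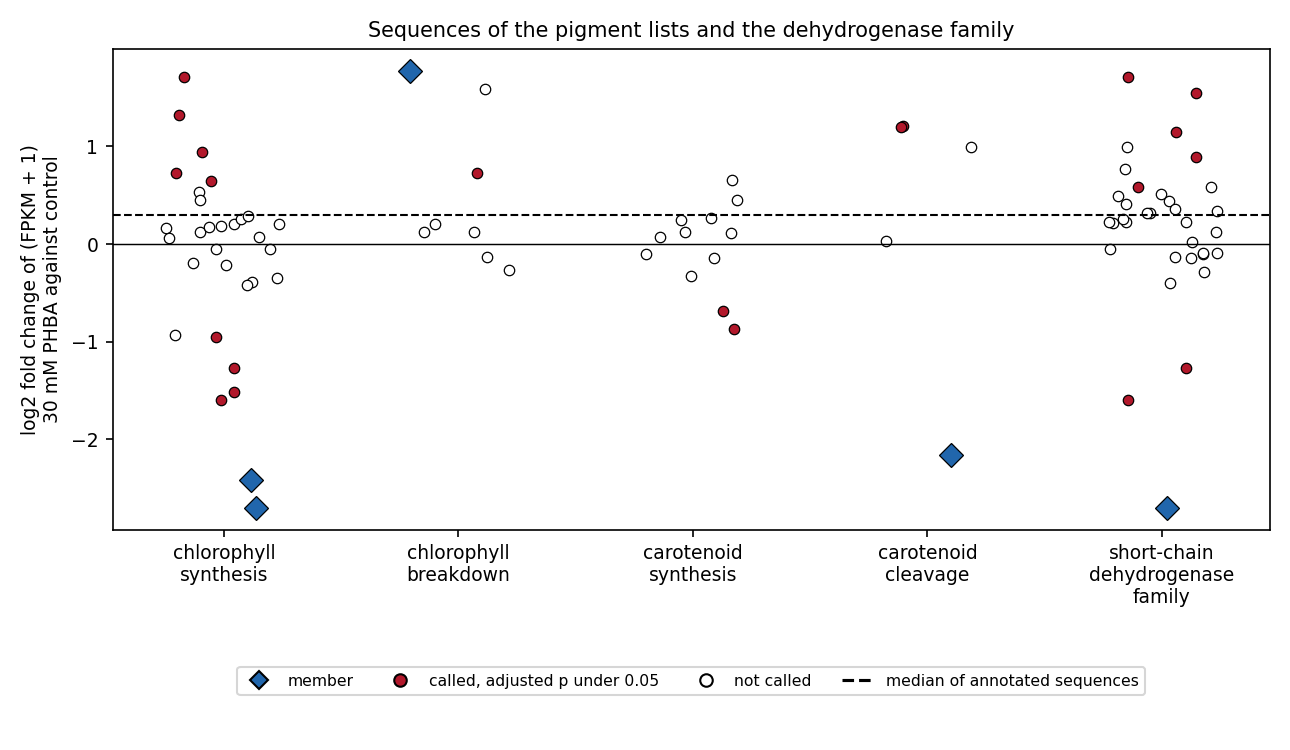
Log2 differences in FPKM + 1 between 30 mM PHBA and control for every tested sequence of the 4 pigment lists and of the short-chain dehydrogenase family; blue diamonds are the listed sequences (no test), red points were called by limma and the dashed line is the median of annotated sequences (0.30). The members lie at the edges of their lists, as their selection implies. Called sequences of the chlorophyll synthesis list lie on both sides, and its rises include sequences annotated for other pathways.

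Over the 4 pigment lists together, 50 sequences besides the members were tested, of which 7 rose and 6 fell at 30 mM as deposited. The falls were 12% of the 50 and the rises 14%, beside 2.95% and 21.1% of all annotated sequences and 1.75% and 10% of all sequences. Among the 30 that averaged at least 5 FPKM, 20% fell and 6.67% rose, beside 7.81% and 44.5% of all sequences under that filter. After quantile normalization the counts were 4 rises and 20 falls, 8% and 40% of the 50, beside the 5.62% higher and 5.45% lower of all sequences under that scaling. Without control replicate 2 they were 4 and 4, beside 4.79% higher and 0.803% lower of all sequences.

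Most leaf marker sequences (57 of 67) were lower at 30 mM, where the median log2 difference of all annotated sequences was 0.30. The GUN4-like, reductase-type and carotenoid oxygenase sequences were lower too, which their choice had fixed. At this dose 31 of the 67 tested leaf markers were called lower and 2 higher, beside 2.95% lower and 21.1% higher among all annotated sequences. The median log2 difference of the 67 was -0.75, and both called rises were carbonic anhydrase sequences. The chlorophyll a-b binding markers summed to 2290 ± 556 FPKM at 30 mM and 6060 ± 1360 FPKM in controls. Photosystem sequences held most of the leaf marker FPKM, and 12 of 38 were called lower. They summed to 19900 ± 3220 FPKM at 30 mM and 21200 ± 2640 FPKM in controls, with overlapping libraries. At 15 mM limma called none of the 67, and 3 had an unadjusted p under 0.05, 2 higher and 1 lower, beside 10.4% of all sequences. The single Rubisco small subunit sequence summed to 80.6 ± 25.8 FPKM at 30 mM and 108 ± 28.2 FPKM in controls. The sequences with pollen words summed to 95.7 ± 16.1 FPKM at 30 mM and 51.2 ± 0.375 FPKM in controls, with 6 of 24 called higher and 3 lower. The part of these markers in the differences of the pigment sequences was not tested.

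The sequences whose levels were most like each member over the 9 libraries were sought among the 3336 annotated sequences that averaged 5 FPKM or more, by Pearson's r of log2(FPKM + 1). All r share the same 9 libraries in 3 dose groups and therefore mainly follow the dose. For the GUN4-like sequence they were T30_3_TRINITY_DN1281_c0_g1 (r = 0.973, n = 9), annotated as deoxyxylulose phosphate synthase, the first enzyme of the plastid isoprenoid route, T15_2_TRINITY_DN875_c0_g1 with a rhodanese-like domain (0.970) and T30_2_TRINITY_DN9463_c0_g1 with a histone-like NF-Y domain (0.967). T30_3_TRINITY_DN1281_c0_g1 had means of 18.7 ± 3.18, 12.8 ± 0.823 and 6.75 ± 0.831 FPKM for 0, 15 and 30 mM.

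The protochlorophyllide reductase-type sequence was most like the chlorophyll a-b binding sequences TCK_2_TRINITY_DN1025_c0_g2 (0.962) and T15_3_TRINITY_DN576_c0_g1 (0.959), with T30_2_TRINITY_DN9463_c0_g1 between them (0.961). All 3 nearest sequences of the carotenoid oxygenase were chlorophyll a-b binding proteins, antenna proteins of the light-harvesting complexes: TCK_3_TRINITY_DN847_c0_g1 (0.995), T30_2_TRINITY_DN134_c0_g1 (0.992) and T15_3_TRINITY_DN6816_c0_g1 (0.991). TCK_3_TRINITY_DN847_c0_g1 had means of 208 ± 27.2, 172 ± 28.8 and 76.4 ± 15.8 FPKM for 0, 15 and 30 mM. The stay-green sequence was most like T30_1_TRINITY_DN7145_c0_g2 (0.996), annotated as nicotinate phosphoribosyltransferase, an enzyme of NAD synthesis, T15_1_TRINITY_DN7479_c0_g3, a clathrin heavy chain (0.989), and T30_2_TRINITY_DN11679_c0_g1, a pyridoxal phosphate-dependent transferase (0.988).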

How the data were processed

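Leaf RNA was sequenced in 9 libraries, 3 each for control, 15 mM PHBA and 30 mM PHBA. The authors deposited FPKM values for sequences whose names carry the Trinity assembler, per the file headers, and a table of domain and pathway annotation without values. RSEM, DESeq, FastQC 0.11.5 and Trimmomatic 0.36 appear in the submitters' processing notes without their roles; the mapper and the merging of assemblies were not given in the sources used here. No sequence name matched the reference gene table, so sequences keep their identifiers, and several may be pieces of 1 gene. Read depth is unknown, and library totals are given as summed FPKM.

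Sequences with at least 0.5 FPKM in 3 libraries were kept (44203). With limma 3.58.1 (R 4.3.3), log2(FPKM + 1) was fitted for 3 groups over 9 libraries (6 residual degrees of freedom, moderation with a mean trend). Two-sided p-values had Benjamini-Hochberg adjustment over all 44203, and a call needed an adjusted p under 0.05. Fold differences on this scale understate low sequences. Means have the SD of 3 libraries. The fit was tested on simulated data. The members, the lists (words matched in the annotation) and the naming rule were chosen with earlier results of these data known. Named were the members, their families, the most abundant sequence of each step, up to 4 called sequences per list, comparison and direction with a mean of at least 5 FPKM, and the 3 sequences most like each member. The 18 alternatives changed the pseudocount, filter, scaling, libraries or replicate block.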

Additional observations from a re-analysis of the deposited data

How the results depend on the processing

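The 4 members kept their direction in every setting that tested them. The GUN4-like difference at 30 mM against control was -2.13 with a pseudocount of 5, -2.75 with quantile normalization and -2.80 with median-of-ratios factors. For the protochlorophyllide reductase-type sequence it was -4.08 with a pseudocount of 0.1 and -1.34 with 5, and against 15 mM -2.44 and -0.50. It has no value with a mean of at least 5 FPKM, a filter it missed. The stay-green difference at 30 mM was 2.01 and 1.18 with pseudocounts of 0.1 and 5, 1.31 after quantile normalization and 1.43 after median-of-ratios rescaling. The GUN4-like difference of -0.89 at 15 mM was called only with a mean of at least 5 FPKM, where fewer sequences were tested. After quantile normalization TCK_3_TRINITY_DN6061_c0_g3, T15_3_TRINITY_DN5541_c0_g1 and T30_1_TRINITY_DN11315_c0_g1 turned to -0.46, -0.28 and -0.40 at 30 mM; the cause was not tested. Of 1962 values of named sequences outside the members, 98 uncalled ones changed sign, 60 of them under a rescaling.

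Calls over all sequences at 15 mM (44) were 102 and 5 with pseudocounts of 0.1 and 5, 4 without a filter, 213 with a mean of at least 5 FPKM, 76, 71 and 76 under the 3 rescalings (quantile, median-of-ratios, without the 4 most abundant sequences) and 14 in the 6 libraries alone; without 1 library they were 5 to 135. At 30 mM (5200) they were 3401 without a filter and 2380 with a mean of at least 5 FPKM, and 2350 to 5773 without 1 library. The filter on the mean left 4548 sequences to test, of which 44.5% were called higher and 7.81% lower at 30 mM. Between 30 and 15 mM (1371) calls were 746 without a filter, 2236, 2135 and 2472 under the 3 rescalings and 403 in the 6 libraries, and 518 to 1572 without 1 library. In the pigment lists without the members, the 13 calls at 30 mM among 50 sequences were 24 after quantile normalization (8 to 15 without 1 library). With a mean of at least 5 FPKM they were 8 among 30, 6.67% higher and 20% lower, beside 44.5% and 7.81% of all sequences. The 4 calls between 30 and 15 mM were 7, 12, 8 and 10 with that filter and the 3 rescalings and 1 in the 6 libraries (1 to 5 without 1 library). The 7 were 6.67% higher and 16.7% lower of the 30, beside 15.7% and 6.51% of all sequences. Replicate numbers did not pair the libraries: deviations of same-numbered libraries correlated at -0.0128 to 0.0269. With the replicate block, calls were 4 at 15 mM and 851 between 30 and 15 mM. Depth is unknown, which limits low sequences most.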
